A study of Mus musculus with 2 samples.

Results

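B cells with few precursor transcripts were examined in mandibular first molars and the tissue around them at PN15.5. The cells were chosen by their own counts of unique molecular identifiers (UMIs), so these values are given as a description. A selected cell had at least 200 genes, at most 20% mitochondrial UMIs, at least 3 UMIs over Cd79a (ENSMUSG00000003379) and Cd79b (ENSMUSG00000040592), fewer than 3 UMIs over Vpreb3, Igll1 and Rag1, and at most 2% of its UMIs from Col1a1. Of 17780 kept cells, 282 met the rule, 169 from the Lipo-Clo library and 113 from the Lipo-PBS library. Cells that differed only in holding 3 or more UMIs over Vpreb3, Igll1 and Rag1 are called precursor B cells here, and there were 270 of them in Lipo-Clo against 128 in Lipo-PBS.

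C57BL/6J mice of the Lipo-Clo group received clodronate liposomes, which deplete phagocytes, into the peritoneal cavity at 40 μg per g of body weight, in 4 injections 3 days apart beginning at PN3.5. The Lipo-PBS mice received the same volume of vehicle liposomes on the same days. Each group is 1 library made with 10x Genomics chemistry after digestion with Dispase and Collagenase I, and how many mice went into a library was not stated. No test between the groups was therefore possible, and every interval below is an exact 95% interval, unless another kind is named, and covers counting error only.

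B cells develop in the bone marrow and, around birth, also in the liver and spleen, by rearranging first the heavy chain and then a kappa or lambda light chain gene. Pro-B and pre-B cells use the recombinase Rag1 and the surrogate light chain gene Igll1, while Vpreb3 stays on into the immature B cell stage. Cd79a and Cd79b are the signalling subunits that pair with membrane immunoglobulin, first in the pre-B cell receptor and then in the B cell receptor, and later stages gain MHC class II molecules, Ms4a1 (CD20) and IgD. The jaw holds bone marrow close to the molars, so tissue taken with a tooth can carry B cells of several stages.

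The selected cells made up 1.90% of the kept cells of Lipo-Clo (169 of 8886, 1.63 to 2.21%) and 1.27% of those of Lipo-PBS (113 of 8894, 1.05 to 1.53%). The log2 ratio of these shares, Lipo-Clo over Lipo-PBS, was 0.58 (0.23 to 0.94). Precursor B cells made up 3.04% (2.69 to 3.42%) and 1.44% (1.20 to 1.71%), a log2 ratio of 1.08 (0.77 to 1.39). Both groups were thus a larger part of the Lipo-Clo library, where the selected cells were 38.5% (33.9 to 43.2%) of selected and precursor cells together, against 46.9% (40.5 to 53.4%) in Lipo-PBS. The odds of being a selected rather than a precursor cell differed by −0.50 on the log2 scale (−0.97 to −0.02). Among kept cells with a UMI of the pan-leukocyte gene Ptprc, of which 751 and 591 were found, the share was lower in Lipo-Clo. It was 4.53% (34 cells, 3.16 to 6.27%) against 6.60% (39 cells, 4.73 to 8.91%), and those intervals overlap. The log2 ratio was −0.54 (−1.25 to 0.16), which spans 0. Only 34 of 169 and 39 of 113 selected cells had a Ptprc UMI, so this share also depends on how often Ptprc was seen. A share of a library depends on all other cells in it, and neutrophil transcripts were 31179 and 6447 UMIs per 1000000 UMIs (CPM) in the cells that are neither selected nor precursor B cells.

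The selected cells were shallow. Their median depth was 866 UMIs and 566 genes in Lipo-Clo and 1057 UMIs and 685 genes in Lipo-PBS, against 1863 and 2290.5 UMIs for precursor B cells and 2713 and 2772 UMIs for the other kept cells. All UMIs of the selected cells came to 335841 and 248365, of which the deepest 17 and 12 cells held 44.0% and 36.6%. Summed levels therefore lean on a few deep cells. Of the selected cells, 87 from Lipo-Clo (51.5%) and 67 from Lipo-PBS (59.3%) also held 3 or more UMIs of T and NK cell, macrophage, neutrophil, mesenchyme, endothelium, epithelium or dendritic cell markers, and these cells held 79.2% and 81.6% of all UMIs. Scrublet's automatic threshold called 0 and 1 cells in the whole libraries, and 12 and 9 selected cells were among the highest 7.11% and 7.12% of doublet scores. Results are therefore also given for the 82 Lipo-Clo and 46 Lipo-PBS cells without such markers, which hold 69704 and 45821 UMIs and are called cells without other lineages. They are the shallower ones, with medians of 711.5 and 832.5 UMIs against 1515 and 2419 UMIs in the rest, and low levels of the marker lists in them are fixed by how they were chosen.

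The name "past the precursor stage" was borne out only in part. Selected cells with 0, 1 and 2 precursor UMIs were 48, 63 and 58 in the Lipo-Clo library and 33, 43 and 37 in the Lipo-PBS library, and 46 and 28 cells lay just outside the limit with 3. A Vpreb3 UMI was present in 117 and 77 selected cells. At the other limit, 48 and 38 selected cells had exactly 3 Cd79 UMIs, and 49 and 50 cells that otherwise met the rule had 2. When precursor B cells were thinned to 500 UMIs each, 62.2% (56.1 to 68.0%) of those in Lipo-Clo and 68.8% (60.0 to 76.6%) of those in Lipo-PBS fell under 3 precursor UMIs. The limit thus depends on the depth of a cell.

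Genes outside the rule still differed between selected and precursor cells. MHC class II genes, which present antigen to T cells, summed to 4746 CPM in the selected cells of Lipo-Clo against 1130 in its precursors, and to 4159 against 2016 in Lipo-PBS. At 500 UMIs a Cd74 (ENSMUSG00000024610) UMI, the invariant chain of MHC class II, was seen in 54.4% (46.6 to 62.1%) of selected and 25.6% (20.5 to 31.2%) of precursor cells in Lipo-Clo. For Lipo-PBS these shares were 50.4% (40.9 to 60.0%) and 25.8% (18.5 to 34.3%), while 2.03% and 1.64% of endothelial cells, described below, had such a UMI at that depth. Cell cycle genes went the other way, with 4913 CPM in selected and 9964 in precursor cells of Lipo-Clo, and 2170 and 7793 in Lipo-PBS.

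Along the number of precursor UMIs the levels changed on both sides of the limit and not at the limit alone. MHC class II levels in Lipo-Clo were 4675, 5333 and 4172 CPM in cells with 0, 1 and 2 precursor UMIs, 3230 in those with 3, 1977 in those with 4 to 9 and 370 in those with 10 or more. In Lipo-PBS they were 6181, 3163, 3175, 2419, 2043 and 1807 CPM over the same steps. In Lipo-Clo the intervals at 2 (3745 to 4634 CPM) and 3 (2797 to 3711 CPM) did not overlap, and the level fell further beyond the limit, while in Lipo-PBS the widest gap lay between 0 and 1. Cells with 10 or more precursor UMIs were deep, with medians of 4623 and 3387 UMIs, against 737.5 and 1989 UMIs at 3, so depth moves along these steps and its part was not tested. Ly6d, a surface protein that marks commitment to the B lineage, was at 4603 CPM at 2 and 4772 CPM at 3 precursor UMIs in Lipo-Clo, and at 267 CPM at 10 or more. Cells with 0 precursor UMIs had 1569 CPM of Ly6d in Lipo-Clo against 2460 CPM in Lipo-PBS. Cell cycle levels in Lipo-Clo went up and down, at 5791, 2287, 6462 and 7401 CPM over 0 to 3 precursor UMIs, while those of Lipo-PBS were 1860, 2151, 2549 and 3386 CPM.

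**Figure D1:**
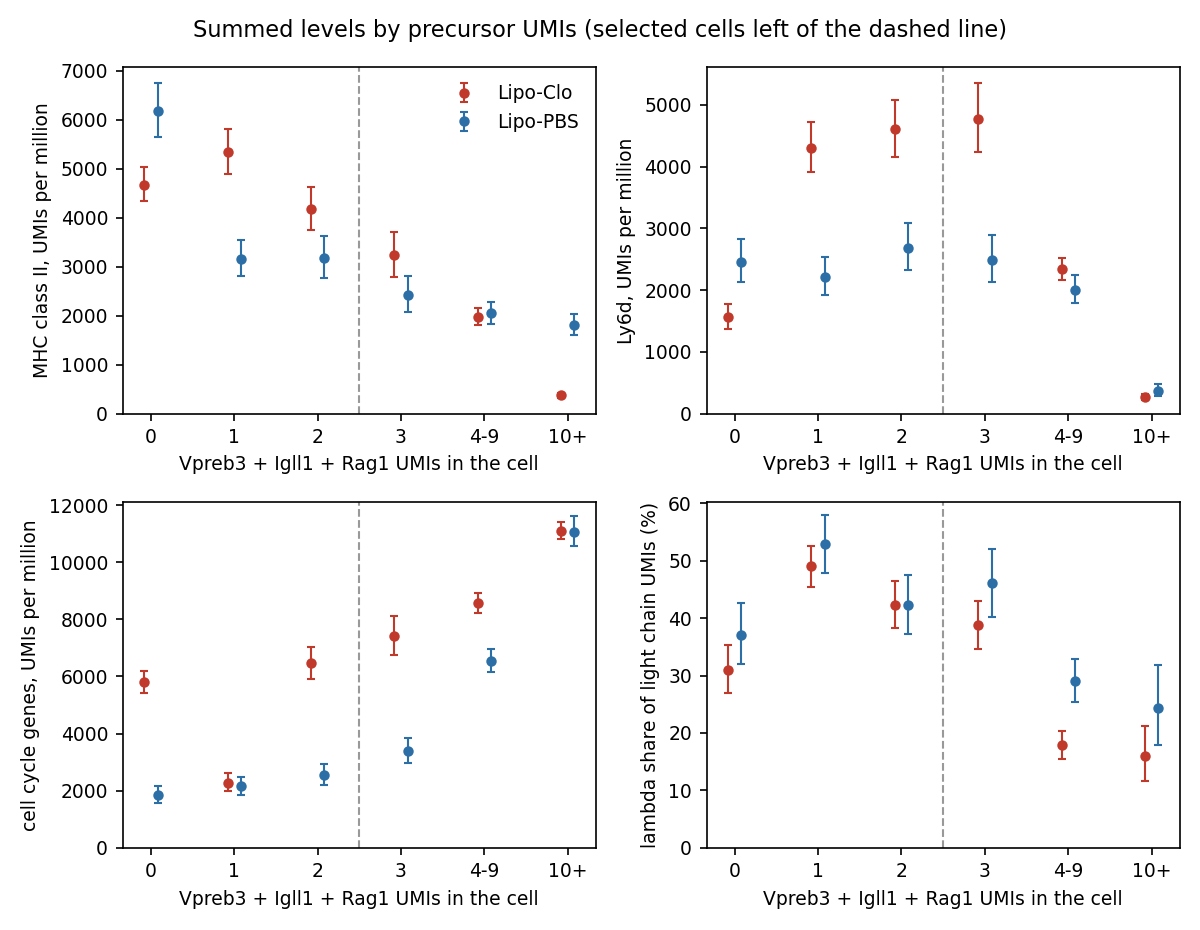
Summed UMIs per 1000000 (CPM) of MHC class II genes, Ly6d and cell cycle genes, and the lambda share of light chain UMIs in percent, by the number of Vpreb3, Igll1 and Rag1 UMIs in the cell; points are sums over the cells of 1 library and bars are exact 95% intervals for counting error. MHC class II is lower and cell cycle levels are higher at 10 or more UMIs than in any selected step, and levels change on both sides of the dashed limit between selected cells (left) and precursor B cells (right).

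B lineage transcripts were broadly present. Ighm (ENSMUSG00000076617), the IgM heavy chain, was seen in 91.7% of the Lipo-Clo cells and 91.2% of the Lipo-PBS cells, Ly6d in 87.6% and 86.7%, Ms4a1 in 43.2% and 46.0%, and the tetraspanin Cd37 in 52.7% and 46.9%. With each cell thinned to 500 UMIs, which left out none, Ighm was seen in 67.5% (59.8 to 74.5%) and 58.4% (48.8 to 67.6%), and Ms4a1 in 29.0% (22.3 to 36.5%) and 26.5% (18.7 to 35.7%). How often free RNA gives such UMIs can be understated by a reference that leaves out cells with a Cd79 UMI. The reference here was endothelial cells with 3 or more UMIs over Pecam1 and Cdh5 and no Cd79 UMI. In these 197 and 304 deeper cells (median 1808 and 2552 UMIs) Ighm was seen in 1.02% and 4.28%, Ms4a1 in none and 1.32%, and Cd37 in 3.55% and 0.987%. The transcription factor gene Ebf1 (ENSMUSG00000057098) does not separate the cells, since 46.2% and 68.1% of the endothelial cells had a UMI of it against 77.5% and 88.5% of the selected cells.

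Heavy chain classes other than IgM were rare or absent. Ighd, which marks mature naive B cells, gave 14 UMIs in 13 Lipo-Clo cells and 12 UMIs in 11 Lipo-PBS cells, and no UMI in the endothelial reference. With each cell thinned to 1000 UMIs it was seen in 3 of 74 cells (4.05%, 0.844 to 11.4%) and 3 of 63 cells (4.76%, 0.993 to 13.3%), with 95 and 50 shallower cells left out, against 7.69% and 9.73% unthinned. The groups could not be told apart at this depth, with a difference of −0.708 percentage points (−9.45 to 7.14, from Wilson limits). No UMI of Ighg1, Ighg2b, Ighg2c, Ighg3, Igha, Ighe or Jchain was seen in any of the 282 cells, nor of the plasma cell receptor gene Tnfrsf17. Among follicular B cell genes, Fcer2a (CD23) gave 4 and 0 UMIs and Cr2 (CD21) 2 and 1, while the whole list of 16 genes summed to 1090 and 1280 CPM against 497 and 633 CPM in precursor cells. Dntt, which adds bases at rearranging heavy chain genes, was at 0 in both libraries, and Il7r, the pro-B and pre-B cell growth factor receptor, at 29 and 35 UMIs.

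Both light chains were in use. In Lipo-Clo the selected cells held 1083 UMIs of Igkc and 793 of Iglc1, Iglc2 and Iglc3, a lambda share of 42.3% (40.0 to 44.5%). In Lipo-PBS they held 610 and 490 UMIs, a lambda share of 44.5% (41.6 to 47.5%). The lambda shares of the groups differed by a log2 ratio of −0.08 (−0.24 to 0.09), which spans 0. The Iglc genes resemble each other closely, so they were counted together. Precursor B cells had lambda shares of 24.1% (22.1 to 26.2%) and 32.9% (30.1 to 35.9%), below those of the selected cells of the same library. By cell, 48 of 147 Lipo-Clo cells (32.7%, 25.2 to 40.9%) and 28 of 103 Lipo-PBS cells (27.2%, 18.9 to 36.8%) held more lambda than kappa UMIs. Among precursor B cells these were 26 of 201 (12.9%, 8.63 to 18.4%) and 19 of 103 (18.4%, 11.5 to 27.3%). By cell, the intervals of selected and precursor cells thus overlap in Lipo-PBS and not in Lipo-Clo.

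Many cells held both chains. At least 3 UMIs of kappa and of lambda were present in 46 Lipo-Clo cells (27.2%, 20.7 to 34.6%) and 24 Lipo-PBS cells (21.2%, 14.1 to 29.9%), against 0 of 197 and 2 of 304 endothelial cells. Their median depth was 876 and 1042.5 UMIs, against 863 and 1057 UMIs for the remaining selected cells, and the lesser chain made up a median of 31.7% of their light chain UMIs in both libraries. Of them, 5 and 2 were among the highest doublet scores, and 24 and 11 of them held other lineage markers. Precursor cells held both chains in 10.7% (7.31 to 15.1%) and 8.59% (4.37 to 14.9%). Whether such cells are doublets of B cells was not tested.

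**Figure D2:**
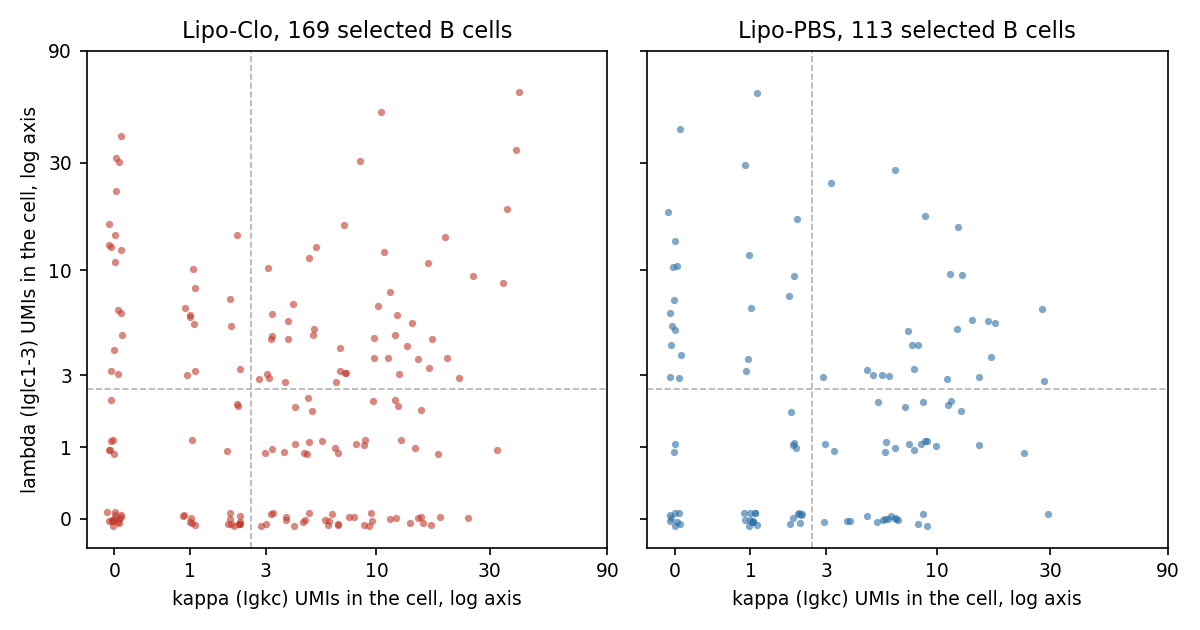
Kappa and lambda constant region UMIs in each selected B cell, 1 point per cell with a small random shift, on log axes with 1 added; dashed lines mark the limit of 3 UMIs. Cells along either axis hold 1 chain, and the upper right field holds the 46 Lipo-Clo and 24 Lipo-PBS cells with at least 3 UMIs of each.

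The selected cells were not uniform in antigen presentation. No MHC class II UMI was seen in 46 Lipo-Clo cells (27.2%, 20.7 to 34.6%) and 26 of 113 Lipo-PBS cells (15.6 to 31.9%), while the richest 17 and 12 cells held 44.9% and 55.0% of all such UMIs. After thinning to 500 UMIs, 92 Lipo-Clo cells had a Cd74 UMI and 77 had none, and in Lipo-PBS 57 had one and 56 had none. Ms4a1 went with Cd74, being seen in 47.8% of cells with and 6.49% of cells without it in Lipo-Clo, and in 45.6% and 7.14% in Lipo-PBS, with no such UMI in endothelial cells at that depth. Ly6d and Ighm were also seen less often without Cd74. In Lipo-Clo, Ly6d was seen in 59.7% against 81.5% and Ighm in 55.8% against 77.2% of cells. In Lipo-PBS, Ly6d was seen in 46.4% against 70.2% and Ighm in 28 of 56 against 38 of 57 cells. A UMI of Vpreb3, Igll1 or Rag1 was seen in 49.4% without and 40.2% with Cd74 in Lipo-Clo. In Lipo-PBS that order was turned, at 26.8% and 33.3%. These differences were not tested. Cd79a or Cd79b, which the rule used, was seen in 71.4% against 89.1% and 66.1% against 87.7%. The lambda share went against it, at 36.5% (32.9 to 40.3%) with and 68.1% (61.3 to 74.5%) without Cd74 in Lipo-Clo, and 38.5% (33.5 to 43.6%) and 57.2% (48.8 to 65.4%) in Lipo-PBS. By cell, 20 of 84 and 29 of 46 Lipo-Clo cells held more lambda than kappa UMIs, while in Lipo-PBS these were 14 of 46 (30.4%, 17.7 to 45.8%) and 11 of 30 (36.7%, 19.9 to 56.1%), whose intervals overlap. Cells without Cd74 were deeper before thinning, with medians of 1243 and 1454.5 against 825.5 and 912 UMIs, and more of them held other lineage markers, at 58.4% and 67.9% against 45.7% and 50.9%. The part of depth and of other cells' RNA in this split was not tested.

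Between the groups, 819 genes had at least 100 UMIs over the selected cells of both libraries. Of these, 54 (6.59%) were at least 2-fold higher in Lipo-Clo and 44 (5.37%) at least 2-fold lower, by size alone. The median log2 ratio of the 819 genes was 0.30, so values near 0.30 are ordinary here. Scaling by TMM factors moved that median by −0.29 and gave 29 higher and 67 lower genes, and DESeq2 size factors gave the same counts. Among the cells without other lineages only 140 genes reached 100 UMIs, with 4 higher and 11 lower. Members of gene lists were counted at 20 UMIs or more, and of 4556 such genes 48.3% were higher in Lipo-Clo by any amount, 51.7% were lower, 6.30% were at least 2-fold higher and 11.0% at least 2-fold lower.

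The leading genes of both directions are known from other lineages. The 10 genes with the highest ratios were Cstdc4, Stfa1, Prtn3, Ccl5, Cstdc5, Ngp, Lcn2, Camp, S100a8 and S100a9, mostly granule and cytosolic proteins of neutrophils and their forerunners. S100a9 gave 3771 UMIs in 66 Lipo-Clo cells and 315 UMIs in 15 Lipo-PBS cells, a log2 ratio of 3.15 (2.98 to 3.32), and 3 Lipo-Clo cells held 2827 of its UMIs. Stfa1, with 211 UMIs against none, was at least 52.0-fold higher and Cstdc4, with 161 against none, at least 39.7-fold higher, both set against 3 counts for the whole group. Their exact intervals begin lower than these folds, at log2 5.39 for Stfa1 and 5.00 for Cstdc4. Prtn3 gave 246 UMIs in 4 cells against 1 UMI, a log2 ratio of 7.51 (5.02 to 12.82). The log2 ratios of Cstdc5, Ngp, Lcn2, Camp and S100a8 lay between 3.36 and 4.29. For Ccl5, a chemokine of cytotoxic cells, 89 of the 116 Lipo-Clo UMIs lay in 1 cell, against 2 UMIs in Lipo-PBS (log2 5.42, 3.54 to 8.49). All 8 genes of the neutrophil list were higher in Lipo-Clo, summing to 20161 and 2223 CPM (log2 3.18). The list was at 2.69 without other lineages and 0.15 with precursor UMIs at most 0.1%, and it turned to −2.39 with no precursor UMI.

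Among the 10 genes with the lowest ratios were Pmp22, Sfrp2, Tagln, Aspn, Acta2, Angptl1, Mgp, Igfbp7 and Plac9, with log2 ratios from −3.30 to −1.85. Pmp22 gave 20 UMIs in 12 Lipo-Clo cells against 146 UMIs in 15 Lipo-PBS cells. Acta2, the smooth muscle actin, gave 41 and 135 UMIs, of which 3 cells held 33 and 114, and the matrix gene Mgp 32 and 96 UMIs. The mesenchyme list summed to 6887 CPM against 11721 CPM in the Lipo-PBS cells (7 of 8 genes lower), its most abundant gene being Col3a1. Left out of the ranking were mitochondrial, hemoglobin and immunoglobulin variable genes, of which 10 mitochondrial and 4 hemoglobin genes were at least 2-fold lower in Lipo-Clo. The red cell list summed to 33078 and 105357 CPM.

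T cell and dendritic cell markers were near 0 in the selected cells. Cd3e, Trac, Ncr1, Siglech, Xcr1 and Itgax gave no UMI in either library, and the dendritic cell list summed to 4 and 10 UMIs. The T and NK cell list summed to 42 and 4 UMIs, of which 25 were Gzma UMIs in 1 Lipo-Clo cell. The macrophage list summed to 515 and 455 CPM, led by Lyz2 and Apoe, and C1qa, Adgre1 and Mrc1 were at 0 in Lipo-Clo against 4, 3 and 5 UMIs in Lipo-PBS. Keratin and enamel genes of the epithelium list reached 3314 and 3511 CPM, led by Odam with 803 and 601 UMIs. The 5 endothelial genes gave 35 and 59 UMIs. The part of other cells' RNA in the group differences was not tested.

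RNA composition also differed. Mitochondrial UMIs were 0.482% of the UMIs of the Lipo-Clo cells against 1.93% for the Lipo-PBS cells (log2 −2.00, −2.08 to −1.92), and all 12 mitochondrial genes with 20 UMIs were lower. The same list had a log2 ratio of −2.21 in precursor and −2.25 in the other kept cells, so the difference runs through the whole library. Ribosomal protein genes summed to 170441 and 116047 CPM, and 80 of 84 were higher in Lipo-Clo. Nuclear genes of oxidative phosphorylation were higher in 73 of 79 cases, with a median log2 ratio of 0.36, against −0.04 over all genes with 20 UMIs and 0.30 over those with 100 UMIs. Fewer cells with a transcript and less of it per cell cannot be told apart in such sums, and the part of RNA quality in the results below was not tested.

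B cell identity genes differed little as a group in CPM, but their sum was lower in Lipo-Clo under several alternatives. Of 16 genes, 7 were higher and 9 lower in Lipo-Clo, with a median log2 ratio of −0.10, and their sum was 6509 and 6857 CPM (log2 −0.08, −0.17 to 0.02). That sum was at −0.37 with TMM and −0.38 with DESeq2 size factors. It was at −0.60 with no precursor UMI, −0.38 with Col1a1 at most 0.2% and −0.34 with 500 genes and 10% mitochondrial UMIs as limits. Without other lineages it was at −0.12, and without Scrublet calls at −0.08. Ms4a1 gave 136 and 114 UMIs, a log2 ratio of −0.18 (−0.55 to 0.19). Cd37 gave 154 and 84 UMIs (0.44, 0.05 to 0.84) and Ly6d 1054 and 604 UMIs (0.37, 0.22 to 0.51), both close to the median gene. The only gene past 2-fold was Bank1, a scaffold in B cell receptor signalling, with 14 and 29 UMIs and a log2 ratio of −1.49 (−2.52 to −0.52). Ighm gave 512 and 332 UMIs (0.19, −0.01 to 0.39), and Igkc gave 1083 and 610 UMIs (0.39, 0.25 to 0.54), the latter at −0.05 in the cells without other lineages. Lists of other B cell stages gave few genes. Of 12 early B cell genes 6 had 20 UMIs, with 2 higher and 4 lower in Lipo-Clo and a sum at −0.13 (−0.40 to 0.15). Of 16 follicular genes 9 had 20 UMIs, with 2 higher and 7 lower and a sum at −0.23 (−0.45 to −0.01). Of 10 plasma cell genes 4 had 20 UMIs, with 1 higher and 3 lower and a sum at −0.03 (−0.49 to 0.43). Of 6 marginal zone genes 3 had 20 UMIs, with 1 higher and 2 lower and a sum at −0.72 (−0.97 to −0.47), but most of these UMIs were Cd9 (148 and 221), which was also seen in 70.1% and 79.3% of endothelial cells, and the sum was at 0.18 (−0.96 to 1.40) without other lineages.

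B lineage transcription factors summed to a lower level in Lipo-Clo. Of 21 genes, 14 were lower and 7 higher, none past 2-fold, against 51.7% lower over all genes with 20 UMIs, with a median log2 ratio of −0.38 and a sum of 4639 against 6676 CPM (log2 −0.53, −0.63 to −0.42). Ebf1, which sets up the B lineage program, gave 409 and 511 UMIs, a log2 ratio of −0.76 (−0.95 to −0.57). Bach2, a repressor that holds back plasma cell fate, gave 136 and 178 UMIs (−0.82, −1.16 to −0.49). Zeb2 was at −0.98 (−1.42 to −0.55), Ikzf3 at −0.93 (−1.58 to −0.29) and Foxp1 at −0.45 (−0.79 to −0.10). Pax5, the keeper of B cell identity, gave 29 and 28 UMIs (−0.38, −1.19 to 0.42). The highest ratios of the list were those of Bcl11a at 0.42 (−0.22 to 1.09), Irf8 at 0.39 (−0.48 to 1.31) and Tcf3 at 0.37 (−0.30 to 1.05), whose intervals span 0. The list was as low in the cells without other lineages, at −0.51 (−0.68 to −0.35). It was also lower in precursor B cells, at −0.46 (−0.54 to −0.39), and in the other kept cells, at −0.42 (−0.43 to −0.40), so the difference was not shown to be particular to the selected cells.

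Among genes that carry the B cell receptor signal, a few were lower in Lipo-Clo. Of 22 genes 19 had 20 UMIs, of which Lipo-Clo had 12 lower and 7 higher, not far from the 51.7% lower over all genes, with Malt1 past 2-fold below and Pik3cd past 2-fold above. The sum was 2248 against 2641 CPM (log2 −0.23, −0.39 to −0.08), and it was at −0.33 (−0.45 to −0.21) in precursor B cells and 0.11 (0.09 to 0.14) in the other kept cells. Lyn, the kinase that phosphorylates Cd79a and Cd79b, gave 75 and 110 UMIs, a log2 ratio of −0.99 (−1.43 to −0.55). It was at −0.98 (−1.36 to −0.60) in precursor B cells and at 0.28 (0.19 to 0.37) in the other kept cells. The latter mix many cell types whose make-up differed, with neutrophil transcripts at 31179 CPM in Lipo-Clo against 6447 CPM in Lipo-PBS. Their ratio is therefore not a comparison within 1 cell type. Blnk, the adaptor downstream of the kinase Syk, gave 37 and 53 UMIs (−0.95, −1.60 to −0.32), and was at −0.10 (−0.51 to 0.31) in precursor B cells and 0.17 (−0.05 to 0.39) in the other kept cells. Syk itself gave 73 and 68 UMIs (−0.33, −0.83 to 0.17). In the cells without other lineages Lyn was at −1.27 and Blnk at −1.13. These differences between cell groups were not tested.

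**Figure D3:**
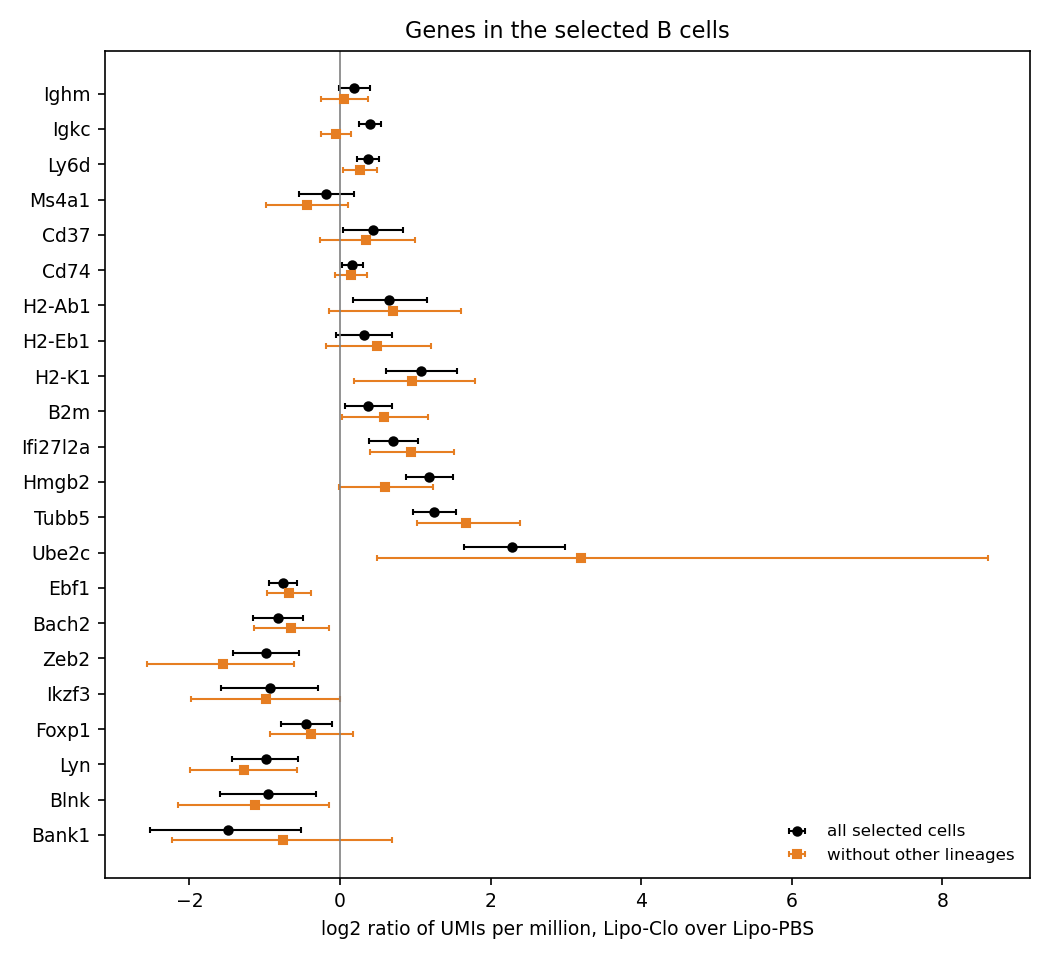
Log2 ratio of UMIs per 1000000, Lipo-Clo over Lipo-PBS, for named genes in all selected B cells (black circles) and in those without other lineages (orange squares); bars are exact 95% intervals for counting error, and 0 is no difference. Ebf1, Bach2, Zeb2, Ikzf3, Foxp1, Lyn, Blnk and Bank1 lie to the left of 0 and H2-K1, B2m, Hmgb2, Tubb5 and Ube2c to the right, while the bars of all selected cells span 0 for Ighm and Ms4a1.

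MHC class II levels did not differ in a stable way. Of 9 genes with 20 UMIs, 6 were higher and 3 lower in Lipo-Clo, and the sum was 4746 against 4159 CPM (log2 0.19, 0.08 to 0.30), a ratio below the 0.30 of the median gene with 100 UMIs that turned to −0.10 with TMM factors and −0.11 with DESeq2 size factors. Cd74 gave 1096 and 723 UMIs (0.16, 0.03 to 0.30) and turned to −0.13 and −0.14. H2-Ab1 gave 113 and 53 UMIs (0.66, 0.17 to 1.16) and H2-Eb1 167 and 99 UMIs (0.32, −0.05 to 0.69). The sum was at −0.83 (−0.97 to −0.70) in precursor B cells and at 0.41 (0.39 to 0.44) in the other kept cells.

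MHC class I genes, which every nucleated cell uses, and interferon response genes were higher in Lipo-Clo. Of 8 class I genes with 20 UMIs, 7 were higher, 2 of them past 2-fold, and the sum was 2159 against 1494 CPM (log2 0.53, 0.35 to 0.72), or 0.24 with TMM factors, 0.23 with DESeq2 factors and 0.25 with at least 5 Cd79 UMIs. H2-K1 gave 148 and 52 UMIs (1.07, 0.61 to 1.56), and B2m, its light chain, 246 and 140 UMIs (0.38, 0.07 to 0.69, but 0.09 and 0.08 with the TMM and DESeq2 factors). Of 17 interferon response genes only Isg15, Ifi27l2a and Bst2 had 20 UMIs, all higher, and the list summed to 1182 against 717 CPM (0.72, 0.46 to 0.99), or 0.43 and 0.42 with those factors. Ifi27l2a gave 256 and 116 UMIs (0.71, 0.38 to 1.04), most of the list. Ifit1 was at 0 in both libraries. In the cells without other lineages the lists were at 0.47 (0.15 to 0.79) and 0.92 (0.43 to 1.43). They were also higher in precursor B cells, at 0.48 and 0.75, and in the other kept cells, at 0.36 and 0.53.

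Cell cycle transcripts were higher in Lipo-Clo and came from few cells. Of 14 genes with 20 UMIs, 12 were higher, 11 of them past 2-fold, and the sum was 4913 against 2170 CPM (log2 1.18, 1.04 to 1.32). The chromatin protein gene Hmgb2 gave 341 and 111 UMIs (1.18, 0.87 to 1.51), the tubulin gene Tubb5 431 and 134 UMIs (1.25, 0.97 to 1.54), and Ube2c, active in mitosis, 152 and 23 UMIs (2.29, 1.65 to 2.99). Cells with 3 or more UMIs over Mki67, Top2a, Cdk1, Ube2c and Birc5 were 22 of the Lipo-Clo cells (13.0%, 8.34 to 19.0%) and 11 of the Lipo-PBS cells (9.73%, 4.96 to 16.8%), and the intervals of these shares overlap. They held 85.3% and 51.4% of the list's UMIs, with median depths of 2681.5 and 4240 UMIs. At 500 UMIs a cell cycle UMI was seen in 45.0% (37.3 to 52.8%) and 46.9% (37.5 to 56.5%) of selected cells and in 42.1% and 47.0% of endothelial cells, whose intervals overlap. Among the cells without other lineages, 7 of 82 (8.54%, 3.50 to 16.8%) and 0 of 46 (up to 7.71%) held 3 or more UMIs of the 5 genes. Precursor B cells with 3 or more UMIs of those 5 genes were 101 (37.4%, 31.6 to 43.5%) and 37 (28.9%, 21.2 to 37.6%). Cells without other lineages gave a log2 ratio of 1.05 (0.74 to 1.36), precursor B cells 0.35 (0.29 to 0.42) and the other kept cells 0.75 (0.73 to 0.77).

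**Figure D4:**
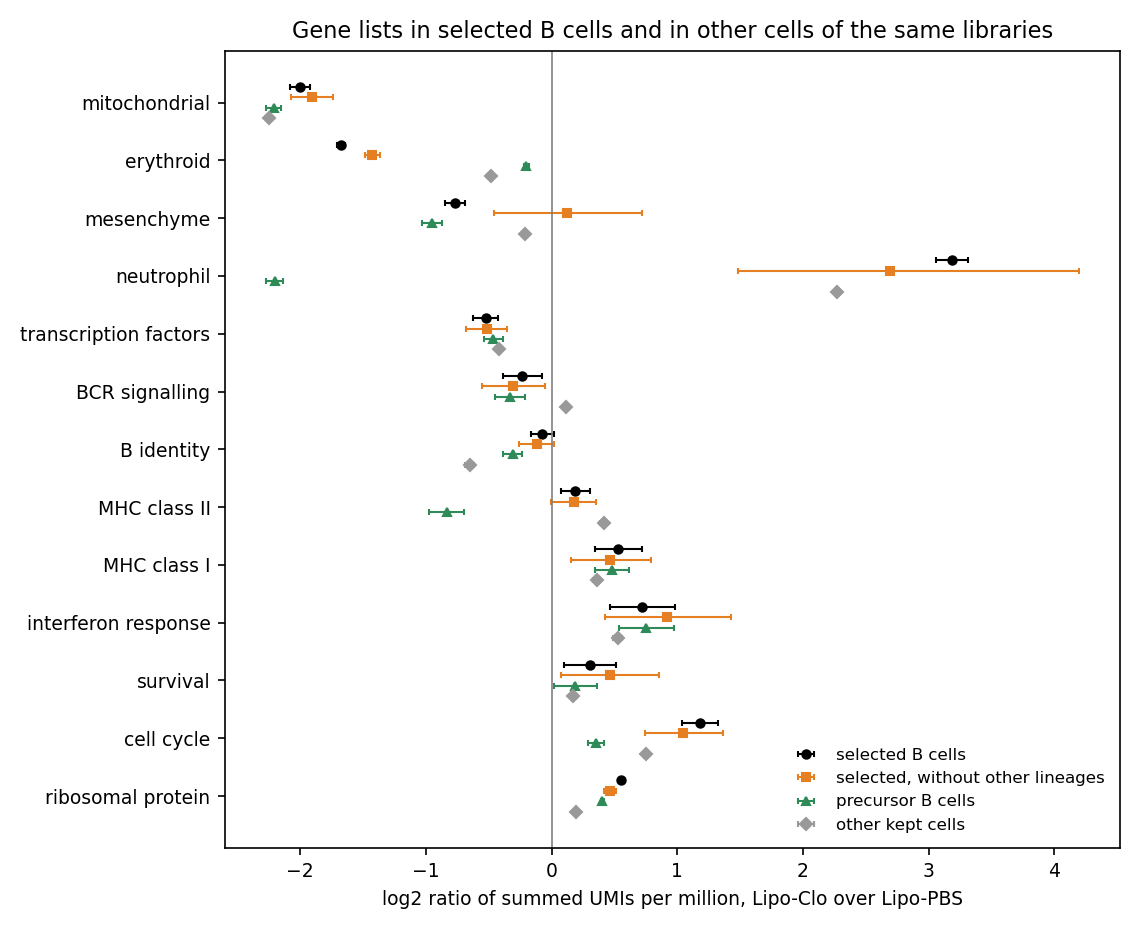
Log2 ratio of summed UMIs per 1000000, Lipo-Clo over Lipo-PBS, for gene lists in the selected B cells, in those without other lineages, in precursor B cells and in all other kept cells; bars are exact 95% intervals for counting error. Transcription factors, MHC class I, interferon response and mitochondrial lists lie on the same side of 0 in the 4 groups of cells, while MHC class II and neutrophil lists lie on the other side of 0 in precursor B cells.

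Immediate early genes, which respond to tissue digestion, changed side with the cells used. In all selected cells 12 of 14 were lower in Lipo-Clo, with a sum of 5446 against 6627 CPM (log2 −0.28, −0.38 to −0.19) and Nr4a1 and Atf3 past 2-fold below. In the cells without other lineages 5 of 5 genes with 20 UMIs were higher, against 63.2% of all 875 such genes in these cells (median log2 ratio 0.21), and the sum was at 0.55 (0.27 to 0.83).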

How the data were processed

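Molars and surrounding tissue of 1 Lipo-Clo and 1 Lipo-PBS library were compared. The authors deposited UMI counts per gene (34285 genes) and called cell, not normalized, and the file headers name Cell Ranger 8.0.0. The submitters' processing notes name Cell Ranger 3.1.0, Seurat 3.1.1 and GRCm39, and which version made the counts could not be settled. Symbols were taken from the deposited files, and Vpreb1, Vpreb2 and H2afz were not analysed here. The libraries hold 31053404 UMIs in 9362 cells and 30537834 UMIs in 9653 cells. They share 30 cell barcodes, 1 of them of a selected cell.

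The selected cells, the gene lists and the genes named were chosen with earlier results of these data known. UMIs were summed over cells, scaled to 1000000 and compared as log2 ratios with exact conditional Poisson intervals. Shares have Clopper-Pearson intervals. With 1 library per group there are no p-values, and genes were counted by size, at 100 UMIs and 2-fold. Named genes are those of the lists with at least 20 UMIs and the 10 with the largest ratio in each direction, leaving out mitochondrial, hemoglobin and immunoglobulin variable genes. A few genes that meet this rule are not reported here. Cells were thinned without replacement. The summing and intervals were tested on simulated data. Scrublet (scanpy 1.11.5) called 0 and 1 cells automatically, so the highest 632 and 633 scores were used, as an alternative only. Size factors from DESeq2 1.42.0, TMM factors from edgeR 4.0.16, and other limits on cells and genes were further alternatives. The labels give both libraries as batch 1.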

Additional observations from a re-analysis of the deposited data

Results flagged for a closer look

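For 6 gene lists the log2 ratio of Lipo-Clo over Lipo-PBS pointed one way in the selected B cells and the other way in precursor B cells, with both counting intervals clear of 0. The difference itself was not tested, since each group is 1 library, and it rests on cells told apart by the rule. The MHC class II list was at 0.19 in selected and −0.83 in precursor cells, immunoglobulin constant genes at 0.30 and −0.21, activation and NF-kB genes at 0.25 and −0.34, and secreted ligands at 0.39 and −0.27. The first 3 of these lie at or below the 0.30 of the median gene with 100 UMIs in the selected cells, and the MHC class II ratio turned to −0.10 with TMM factors. In the cells without other lineages the MHC class II list was at 0.18, immunoglobulin constant genes at −0.09, activation genes at 0.02 and secreted ligands at −0.44. Of the 436 secreted ligand UMIs in Lipo-Clo, 116 were Ccl5, of which 89 lay in 1 cell. The neutrophil list was at 3.18 and −2.20, and 3 Lipo-Clo cells held 5121 of its 6771 UMIs. The T and NK cell list was at 2.96 and −0.99, and 1 Lipo-Clo cell held 25 of its 42 UMIs.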

How the results depend on the processing

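No paired analysis was possible because only 1 library stands for a condition. The higher share in Lipo-Clo (log2 0.58) turned to −0.54 (−1.25 to 0.16) among cells with a Ptprc UMI, which most selected cells lacked. It was 0.96 with Col1a1 at most 0.2% and 0.18 under stricter limits of 500 genes and 10% mitochondrial UMIs. The ratio to precursor cells and the Ighd difference stayed within their intervals under every alternative run. The lambda ratio (−0.08) was 0.25 with at least 5 Cd79 UMIs, −0.26 with no precursor UMI and 0.26 when cells led by lambda were counted. The 54 higher and 44 lower genes became 22 and 15 with at least 5 Cd79 UMIs, 4 and 11 without other lineages, 29 and 67 with TMM or DESeq2 factors, 179 and 277 at 30 UMIs, 12 and 14 at 300 UMIs, and 208 and 81 at 1.5-fold. The higher genes alone moved to 33 with the mean over scaled cells and 86 with cells thinned to 1000 UMIs. The lower genes alone moved to 75 with at least 2 Cd79 UMIs, 24 with no precursor UMI and 20 with Col1a1 at most 0.2%.

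The MHC class II ratio (0.19) turned to −0.19 with at least 5 Cd79 UMIs, −0.40 with no precursor UMI, −0.031 with precursor UMIs at most 0.1%, −0.13 with Col1a1 at most 0.2%, −0.0022 under the stricter limits, −0.10 with TMM, −0.11 with DESeq2 factors and −0.13 with cells thinned to 1000 UMIs. It was 0.48 with at least 2 Cd79 UMIs, 0.013 without Scrublet calls, 0.36 with the mean over scaled cells and 0.37 thinned to 500 UMIs, the last chosen after seeing the data. Cd74 turned to −0.14, −0.55, −0.15, −0.14, −0.030, −0.13, −0.14 and −0.13 under the same 8 settings in the same order.

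Of 734 pairs of a named gene or list and a setting, 481 stayed within the counting interval, 219 moved and 34 reversed. With at least 5 Cd79 UMIs, Acta2 was at 3.32, Mgp 2.11, Igfbp7 0.75, Tagln 0.32, Angptl1 0.23 and Cd37 −0.012. With no precursor UMI, S100a8 was at −3.91, S100a9 −3.66, Cstdc5 −2.90, the neutrophil list −2.39, Ngp −1.26, Ly6d −0.65, Igkc −0.22, Camp −0.16, Acta2 0.28 and Tagln 0.019. With precursor UMIs at most 0.1%, Ngp was at −1.50, Camp −0.89 and Lcn2 −0.11. With Col1a1 at most 0.2%, Angptl1 was at 1.71, Mgp 0.48 and Igkc −0.17. Without other lineages, Tagln and Igfbp7 were at 0.39 and Igkc at −0.053. Foxp1 was at 0.11 with cells thinned to 1000 UMIs. The causes were not tested. At 169 and 113 cells of about 1000 UMIs, genes with few UMIs, such as Ighd, allow no comparison.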

Other observations

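Genes by which B cells signal, settle and survive were sparse. Tgfb1 gave 61 and 44 UMIs in the selected cells of Lipo-Clo and Lipo-PBS (log2 0.04, −0.55 to 0.63), with 182 and 177 CPM, and it was seen in 23.7% and 28.3% of cells against 33.0% and 39.1% of the deeper endothelial cells, which also use this gene. Ltb, a lymphotoxin subunit, gave 85 and 51 UMIs (0.30, −0.22 to 0.83) in 29.0% and 26.5% of selected and 3.05% and 1.64% of endothelial cells, a ratio equal to that of the median gene. Tnfsf11 (RANKL), Il10 and Cd70 gave no UMI. Igf1 gave 52 and 109 UMIs (−1.50, −2.01 to −1.01), or 155 and 439 CPM against 534 and 543 CPM in the other kept cells, with 58 of the 109 UMIs in 3 cells and 1 and 5 UMIs in cells without other lineages. Tnfrsf13c, the receptor for the survival factor BAFF, gave 30 and 22 UMIs (0.01, −0.83 to 0.88) and Tnfrsf13b 36 and 20 UMIs (0.41, −0.41 to 1.28), each in at most 1 endothelial cell. The kinase gene Pim1 gave 211 and 100 UMIs (0.64, 0.29 to 1.00), and was also higher in precursor B cells (0.51) and the other kept cells (0.48). Of 6 survival genes with 20 UMIs, 5 were higher in Lipo-Clo, against 48.3% of all genes with 20 UMIs and 73.1% of those with 100 UMIs. The sum of the survival list was at 0.31 (0.10 to 0.52), about that of the median gene with 100 UMIs (0.30). Cxcr4, which holds B cells in the marrow, gave 46 and 36 UMIs (−0.08, −0.74 to 0.59). Cd180, a receptor of the innate system on B cells, gave 5 and 17 UMIs (−2.20, −3.99 to −0.70) and was seen in 0.658% of the Lipo-PBS and none of the Lipo-Clo endothelial cells. Of 11 innate receptor genes 3 had 20 UMIs, with 2 higher and 1 lower in Lipo-Clo. The sum of that list was at −0.23 (−0.62 to 0.17), which spans 0.

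Immunoglobulin variable genes gave 62 UMIs from 29 of 346 genes in Lipo-Clo and 52 UMIs from 27 genes in Lipo-PBS, with at most 12 UMIs of any one gene, Iglv1 in Lipo-Clo. No gene of the B1 and germinal center lists had 20 UMIs.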
